A study of Homo sapiens with 20 samples.

Results

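The transcripts described here are 10 genes of the oxidative stress defence directed by the transcription factor NRF2 and of iron storage: HMOX1, NQO1, GCLM, GCLC, TXNRD1, SRXN1, SLC7A11, FTH1, FTL and NFE2L2, the gene of NRF2 itself. They were chosen by their symbol from the 20314 genes of the deposited table of read counts, and each of the 10 symbols was found once. The RNA came from an osteosarcoma line of human origin, U2-OS (U2OS in the labels), grown in DMEM with FCS, and was sequenced as 4 groups of 5 libraries. The study asked how gene expression differs between an early and a late response to DNA damage and whether loss of an NF-κB inhibitor resembles the late one. The groups were untreated cells, cells at 90 min and at 7 days after ionising radiation (IR) of 20 Gy, and cells that were not irradiated but carried an shRNA against NFKBIA, which encodes the NF-κB inhibitor IκBα. The study describes the sequenced knockdown as a doxycycline-inducible shRNA in cells given doxycycline beforehand. Per its methods, inducible shRNAs were in pTRIPZ, clones were selected with puromycin, and controls carried a scrambled shRNA and received doxycycline. The labels do not say whether the untreated libraries are such controls, so that knockdown, vector and doxycycline cannot be told apart in the comparison of knockdown with untreated cells.

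NRF2 is held in the cytoplasm and marked for degradation by KEAP1, and oxidants or electrophiles that modify KEAP1 let NRF2 accumulate and bind antioxidant response elements (AREs) together with small MAF proteins. Its best known targets make glutathione, reduce thioredoxin and peroxiredoxins, detoxify quinones and break down heme. Ferritin, a shell of heavy and light chains, stores the iron that heme breakdown releases, and translation of both chains is repressed when iron regulatory proteins bind an iron-responsive element near the start of the transcript. NRF2 is regulated to a large part at the level of the protein, which was not measured here.

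The stretches before the gene starts are shown for GCLM and TXNRD1, the only members with a match to the ARE core among the 7 of 10 members that had a promoter window in the RefSeq table (assembly GRCh38.p14). No window was held for HMOX1, SLC7A11 and FTH1. Each window held 250 bases before and 50 bases after an annotated start, and the core was searched as TGACNNNGC on both strands, where N is any base. A match was present in 13.3% of all 35116 windows, and the 7 members had 9 windows between them. Sequence outside the windows was not searched, so members without a match may hold the core elsewhere. The 250 bases before the start follow, with the first match in capitals. The GCLM stretch lies on the minus strand at chr1:93909431-93909680, and its match, on the opposite strand, covers bases 34 to 26 before the start.
GCLM: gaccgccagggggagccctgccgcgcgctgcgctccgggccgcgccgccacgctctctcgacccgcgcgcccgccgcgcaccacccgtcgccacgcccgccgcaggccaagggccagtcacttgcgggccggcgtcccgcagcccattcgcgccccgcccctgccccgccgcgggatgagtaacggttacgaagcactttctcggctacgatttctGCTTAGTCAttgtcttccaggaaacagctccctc
The first TXNRD1 stretch lies on the plus strand at chr12:104215529-104215778 with a match at bases 99 to 91 before the start, and the whole window held 2 matches.
TXNRD1 window 1: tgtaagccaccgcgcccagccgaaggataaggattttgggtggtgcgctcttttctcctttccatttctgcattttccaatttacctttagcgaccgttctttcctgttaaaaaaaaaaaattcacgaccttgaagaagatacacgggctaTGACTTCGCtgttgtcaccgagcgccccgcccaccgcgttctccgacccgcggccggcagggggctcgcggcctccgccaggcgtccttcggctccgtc
The second TXNRD1 stretch lies on the plus strand at chr12:104286782-104287031, and its match, on the opposite strand, covers bases 102 to 94 before the start.
TXNRD1 window 2: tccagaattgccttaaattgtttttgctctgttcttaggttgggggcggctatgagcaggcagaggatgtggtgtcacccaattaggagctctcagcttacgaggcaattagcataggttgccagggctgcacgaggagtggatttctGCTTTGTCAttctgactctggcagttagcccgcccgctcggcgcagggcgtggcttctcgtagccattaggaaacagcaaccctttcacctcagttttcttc
The AP-1 word TGAGTCA, which can overlap an ARE, was found in 0 member windows and in 4.95% of all windows. The word CAGTG, which forms the loop of iron-responsive elements, was looked for after the windows had been seen. It occurred in the first 50 bases after the start of FTL and of no other member with a window, and in 6.48% of all windows. The site lies in the 5′ untranslated stretch at chr19:48965338-48965358, bases 30 to 50 after the start, and is printed with the loop word in capitals.
FTL site: ttgcttcaaCAGTGtttggac

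The reads counted on genes numbered 22535659 to 40390961 per library. RUNX2, COL1A1 and SPARC, markers of the osteoblast lineage, were present in every library (RUNX2 at 67.6 to 206 CPM, counts scaled to a common library total), whereas SP7 and IBSP stood at or near 0. Of the epithelial markers, the keratins KRT8 (189 to 444 CPM) and KRT18 (361 to 657 CPM) were present in all libraries, while EPCAM reached at most 4.45 and CDH1 at most 2.71 CPM, and the leukocyte markers PTPRC, CD3E and CD14 reached at most 1.64 CPM. NFKBIA averaged 12.2 CPM in the knockdown and 31.3 CPM in untreated cells, with all 5 knockdown libraries below all 5 untreated ones (log2 fold change -1.36, SE 0.11, edgeR adjusted p = 4.87e-09). Untreated replicate 5 stood apart: it had the fewest reads and lay at -56.8 on the third principal component, where the other 19 libraries lay between -5.8 and 19.7. The lane of each library is given in its label. Untreated libraries shared a lane with those at 90 min only through replicate 5, and with those at 7 days or with the knockdown not at all. Results that rest on replicate 5 are therefore given with and without it. In bulk RNA a change in the number of cells of a kind cannot be told from a change in RNA per cell.

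CPM were scaled by edgeR's TMM factors. Differences are log2 fold changes from edgeR's quasi-likelihood test, with p adjusted over the 14992 genes tested, and a gene is called higher or lower where the log2 fold change exceeds 0.5 in size and the adjusted p is under 0.05. All 10 members passed the filter on low counts. Per kilobase of the gene width in the table, FTL was the most abundant member in untreated cells (1274 CPM per kb), followed by FTH1 (449). NQO1 (33.8), TXNRD1 (28.3) and SRXN1 (22.8) came next, with libraries of each neighbouring pair overlapping. NFE2L2 (18.7), HMOX1 (15), SLC7A11 (11.5), GCLC (8.47) and GCLM (6.58) followed, and among these the libraries of HMOX1 and SLC7A11 and of SLC7A11 and GCLC overlapped. At 7 days HMOX1 had moved past NFE2L2 and now overlapped NQO1, and SLC7A11 was last (5.52 CPM per kb).

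**Figure D1:**
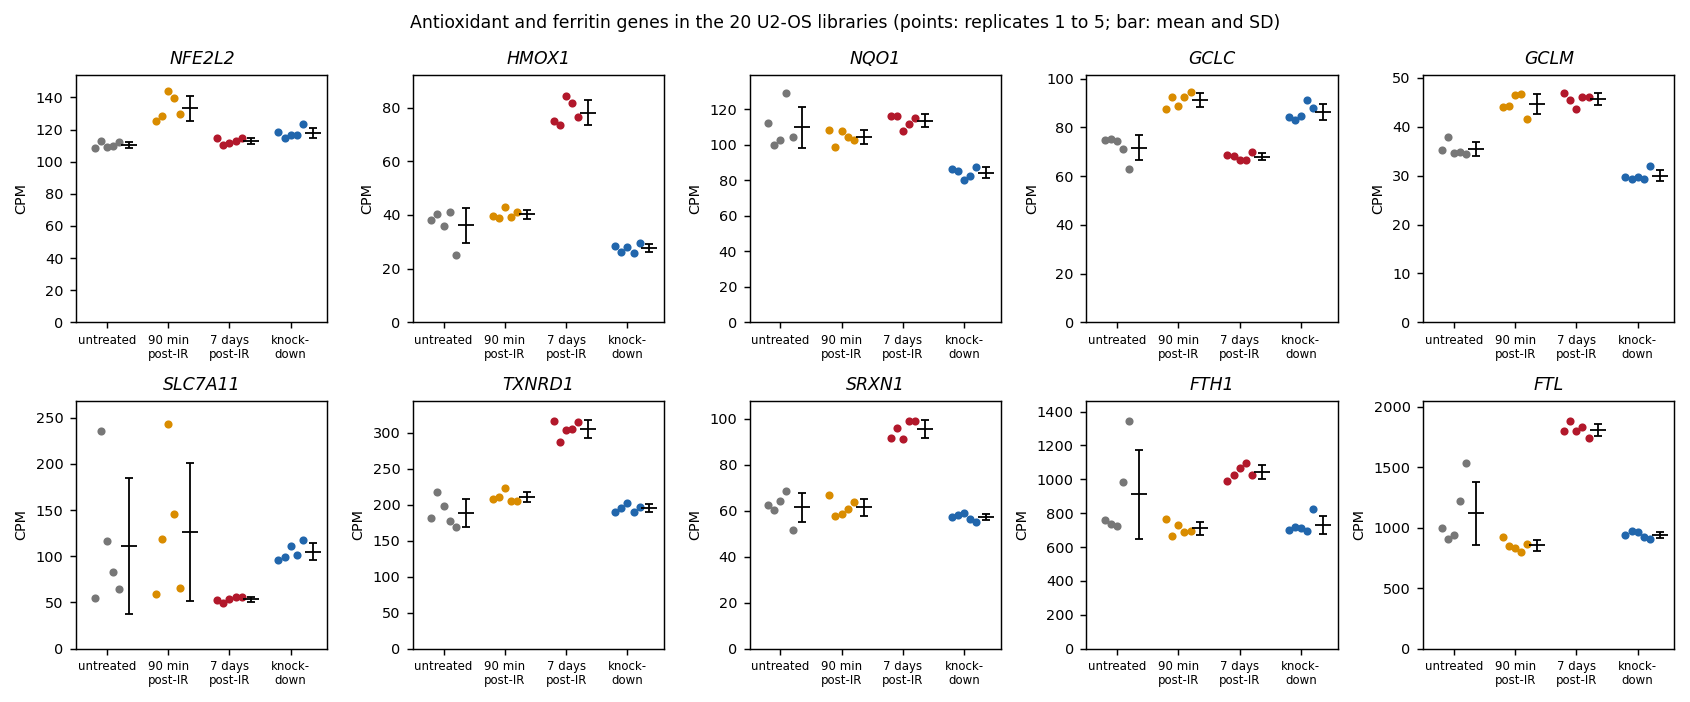
CPM (vertical axis, from 0) of the 10 members in each library, by group, with points for replicates 1 to 5 and a bar for mean and SD. HMOX1, TXNRD1, SRXN1 and FTL stand above all untreated libraries at 7 days post-IR, and SLC7A11 ranges from 54.7 to 236 CPM among untreated libraries but only from 49.1 to 56.0 CPM at 7 days.

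The late response to IR was addressed by comparing 7 days with untreated cells. At 7 days post-IR 4 of the 10 members were higher (HMOX1, TXNRD1, SRXN1 and FTL) and 1 was lower (SLC7A11). Of all genes tested, 31.1% were called in this comparison, 16.7% as higher and 14.4% as lower. The other 5 members (NQO1, GCLM, GCLC, FTH1 and NFE2L2) were not called. The median log2 fold change of the members was 0.28, against 0.01 over all genes. For 5 members, GCLM and the 4 called higher, no library at 7 days overlapped the untreated ones, which was also so for 44.8% of all genes, 24.4% above and 20.4% below.

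At 90 min post-IR, the early response, 0 of 10 members were called by edgeR, and 0 by DESeq2, where 3.66% of all genes were called by edgeR, 2.08% higher and 1.57% lower. With either tool 6 members had an unadjusted p under 0.05, as did 33.4% of all genes with edgeR and 34.5% with DESeq2. Without the fold threshold 5 members passed the adjusted p, with GCLM, GCLC and NFE2L2 above and FTH1 and FTL below untreated cells, beside 21.3% of all genes (11.1% above and 10.2% below). The first 3 of these lay above the untreated libraries without overlap, beside 12.3% of all genes that did not overlap, 7.42% above and 4.85% below.

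In cells with the NFKBIA shRNA 0 of 10 members were called by edgeR, and 0 by DESeq2, beside 12.7% of all genes, 5.18% higher and 7.53% lower. With either tool 7 members had an unadjusted p under 0.05, as did 48.6% of all genes with edgeR and 49.4% with DESeq2. Without the fold threshold HMOX1, NQO1, GCLM and FTH1 lay below and GCLC above untreated cells, 5 members beside 40.5% of all genes (19.5% above and 21.1% below). GCLC and NFE2L2 lay above and NQO1 and GCLM below the untreated libraries without overlap, 4 members beside 24.1% of all genes (12.3% above and 11.8% below). Without untreated replicate 5 HMOX1 was called lower in the knockdown.

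Libraries at 7 days were also set against those at 90 min and against the knockdown. Against 90 min 5 members were higher and 1 lower, beside 29.3% of all genes called (16.8% higher and 12.6% lower). Without overlap 5 members lay above and 3 below, beside 61.8% of all genes (31.9% above and 29.9% below). Against the knockdown 6 were higher and 1 lower, beside 25.7% of all genes called (15.8% higher and 9.89% lower). Without overlap 7 lay above and 2 below, beside 60.7% of all genes (30.6% above and 30.1% below). HMOX1, TXNRD1, SRXN1, FTH1 and FTL were the members called higher in both, with GCLM the sixth against the knockdown, and SLC7A11 was the member called lower in both. These comparisons share the 7 days libraries, and those with untreated cells share the untreated ones, so their counts are not independent.

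**Figure D2:**
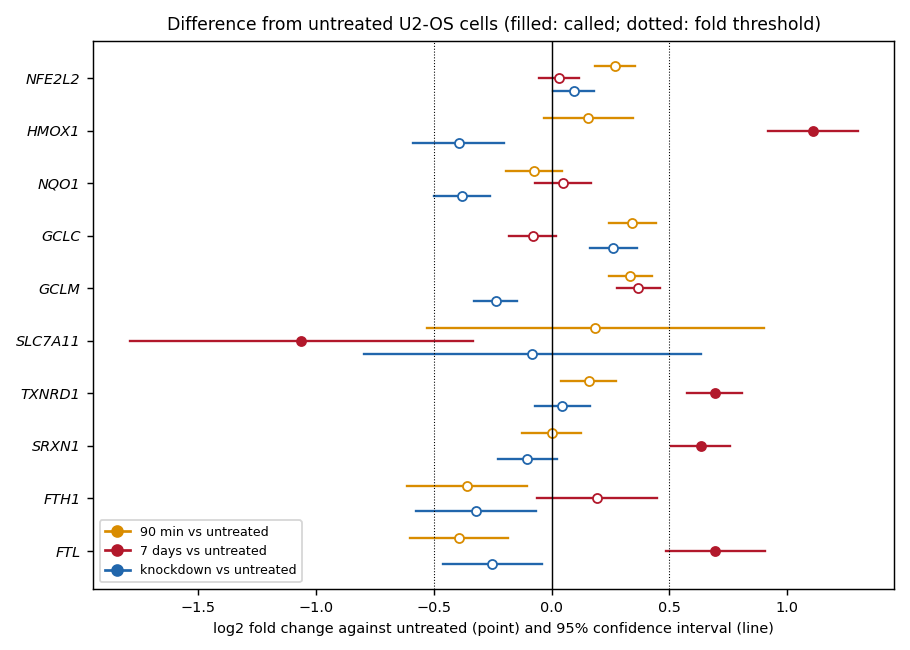
Log2 fold change against untreated cells (horizontal axis) with its 95% confidence interval for the 10 members at 90 min, at 7 days and in the knockdown. Filled points are called, and dotted lines mark the fold threshold of 0.5. The filled points all belong to 7 days, with HMOX1 at 1.11 and SLC7A11 at -1.06 as the highest and lowest.

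NFE2L2, the transcript of NRF2, stood at 108.8, 112.7, 109.0, 109.8 and 112.4 CPM in untreated replicates 1 to 5. At 90 min it stood at 125.5, 128.3, 143.8, 139.4 and 129.6 CPM, and at 7 days at 115.0, 110.1, 111.9, 113.1 and 114.6 CPM. All libraries at 90 min lay above all untreated ones, while those at 7 days overlapped them. The log2 fold change was 0.27 at 90 min (SE 0.04, edgeR adjusted p = 7.27e-05), below the fold threshold, and 0.03 at 7 days (95% confidence interval -0.05 to 0.12). In the knockdown it ranged from 114.8 to 123.3 CPM, above all untreated libraries, with a log2 fold change of 0.09 (edgeR adjusted p = 0.0757). NFE2L2 shares 54 exon bases with AGPS on the opposite strand in GENCODE 29, and whether counting used the strand is not given in the sources used here. AGPS had 78.8 to 120% of the counts of NFE2L2. NFE2L2 also shares 1054 exon bases with AC019080.1 on the same strand and 190 with AC079305.1 on the opposite strand. Neither of these genes is in the table of read counts. KEAP1, which targets NRF2 for degradation, averaged 69.0 CPM in untreated cells, 65.5 at 90 min, 59.0 at 7 days and 61.9 in the knockdown, and was not called in any comparison. Its log2 fold change from untreated cells was -0.23 at 7 days (SE 0.08, edgeR adjusted p = 0.0223), short of the fold threshold. At 90 min and in the knockdown it was -0.075 and -0.157 (edgeR adjusted p = 0.575 and 0.142). The count ratio of NFE2L2 to KEAP1 was 1.65 ± 0.35 (SD, n = 5) in untreated cells and 2.04 ± 0.21, 1.92 ± 0.07 and 1.91 ± 0.13 in the other groups in the same order. By an exact permutation test of the log2 ratio, with p adjusted over 3 ratios and 5 comparisons, none of its differences passed (adjusted p = 0.119 at 90 min, 0.172 at 7 days and 0.202 in the knockdown against untreated cells, n = 5 each). Untreated replicate 5 had the highest ratio of its group (2.25, with the others at most 1.65), and without it these differences had an exact adjusted p of 0.0119 each. KEAP1 was also lowest in that library, below the 68.4 to 80.9 CPM of the other untreated ones.

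HMOX1 encodes heme oxygenase 1, the inducible enzyme that opens the heme ring and frees its iron. It stood at 37.95, 40.5, 35.8, 41.3 and 24.9 CPM in untreated replicates 1 to 5 and at 75.1, 73.4, 84.1, 81.5 and 76.6 CPM at 7 days. Each library at 7 days was above each untreated one, and untreated replicate 5 was the lowest of its group. The log2 fold change at 7 days was 1.11 (SE 0.09, edgeR adjusted p = 1.03e-09), a 2.16-fold difference, and 0.99 without replicate 5. With lane as a term it was 1.59 (edgeR adjusted p = 2.32e-08). At 90 min HMOX1 ranged from 38.8 to 42.9 CPM, within or just above the untreated range. The difference at 90 min was 0.16 on the log2 scale (edgeR adjusted p = 0.247), and it depended on that 1 untreated library. Without replicate 5 it was 0.05, and within lane 3, where replicate 5 is the only untreated library (n = 1), it was 0.69. It was 0.70 and called with lane as a term (adjusted p = 2.2e-05). In the knockdown HMOX1 ranged from 25.7 to 29.4 CPM, below untreated replicates 1 to 4 and above replicate 5. The log2 fold change was -0.39 (SE 0.09, edgeR adjusted p = 0.00187), -0.51 without replicate 5, when it was called, and 0.08 with lane as a term. Between 7 days and 90 min the difference was 0.96 (edgeR adjusted p = 1.04e-08) and within lane 4, with 2 libraries of each, 0.87. Between 7 days and the knockdown it was 1.51, and within lane 5, with 3 libraries at 7 days and 1 of the knockdown, 1.501.

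NQO1, a quinone reductase and a standard NRF2 target, was not called in any comparison. It stood at 112.2, 100.2, 103.0, 129.3 and 104.6 CPM in untreated replicates 1 to 5, and between 108.0 and 116.5 CPM at 7 days. The groups overlapped, with a log2 fold change of 0.05 (95% confidence interval -0.07 to 0.17). In the knockdown NQO1 was between 80.1 and 87.6 CPM, below every untreated library. Its log2 fold change there was -0.38 (SE 0.06, edgeR adjusted p = 2.11e-05), short of the fold threshold, and -0.20 with lane as a term (edgeR adjusted p = 0.402). No lane holds libraries of both groups.

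GCLC and GCLM, the catalytic and the modifier subunit of the ligase that carries out the first and limiting step of glutathione synthesis, were not called in any comparison with untreated cells. GCLC stood at 74.8, 75.3, 74.4, 71.3 and 62.7 CPM in untreated replicates 1 to 5, at 87.5 to 94.3 CPM at 90 min, 66.5 to 69.8 at 7 days and 82.8 to 91.1 in the knockdown. GCLM stood at 35.2, 37.9, 34.6, 34.8 and 34.5 CPM in untreated replicates 1 to 5, at 41.7 to 46.7 CPM at 90 min, 43.7 to 46.9 at 7 days and 29.2 to 32.0 in the knockdown. At 90 min both subunits lay above all untreated libraries, by 0.34 for GCLC and 0.34 for GCLM on the log2 scale (edgeR adjusted p = 2.39e-05 and 1.11e-05). At 7 days GCLM lay above all untreated libraries (0.37, edgeR adjusted p = 2.67e-07), and GCLC overlapped them (-0.08, adjusted p = 0.153). Without untreated replicate 5 the GCLC value was -0.14 (edgeR adjusted p = 0.00105). In the knockdown GCLC lay above (0.26, adjusted p = 0.000173) and GCLM below (-0.24, adjusted p = 0.000221) every untreated library. None of these passed the fold threshold. Without untreated replicate 5, the lowest of its group for GCLC, GCLC at 90 min was at 0.29. With lane as a term, which compares untreated cells with the rest through replicate 5, it was at 0.51 (edgeR adjusted p = 8.18e-06) and called. In the same fit GCLM in the knockdown was at -0.16 and no longer past the test (adjusted p = 0.387), and GCLC there was at 0.38 (adjusted p = 0.0115).

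The count ratio of GCLC to GCLM, which does not depend on library scaling, was 2.03 ± 0.13 (SD, n = 5) in untreated cells and 2.05 ± 0.14 at 90 min. It was 1.49 ± 0.03 at 7 days and 2.87 ± 0.14 in the knockdown. The groups at 7 days and in the knockdown lay on opposite sides of the untreated range of 1.82 to 2.15 without overlap. The log2 ratio differed from untreated cells by -0.45 at 7 days and by 0.50 in the knockdown (exact permutation test, two-sided, n = 5 each, adjusted p = 0.017). The raw p of 0.00794 behind it is the smallest that 5 against 5 libraries allow. At 90 min the difference was 0.01 (exact permutation test, adjusted p = 0.873).

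**Figure D3:**
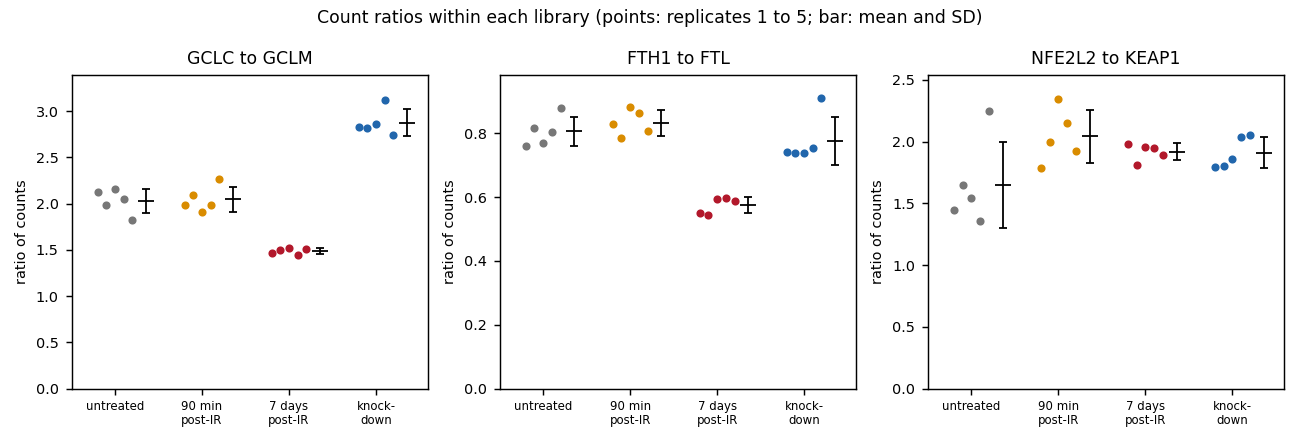
Ratio of the counts of 2 genes within each library (vertical axis, from 0) by group, for GCLC to GCLM, FTH1 to FTL and NFE2L2 to KEAP1, with points for replicates and a bar for mean and SD. The GCLC to GCLM ratio is lowest at 7 days (1.44 to 1.52) and highest in the knockdown (2.74 to 3.12), and the FTH1 to FTL ratio is lowest at 7 days (0.545 to 0.599).

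SLC7A11 encodes the cystine transporter subunit xCT, which supplies the cysteine for glutathione. It stood at 54.7, 236.1, 117.0, 82.7 and 64.1 CPM in untreated replicates 1 to 5 and at 59.6, 118.2, 242.8, 146.1 and 65.5 CPM at 90 min. At 7 days it stood at 52.3, 49.1, 53.2, 56.0 and 55.4 CPM, and in the knockdown it ranged from 95.6 to 117.4 CPM. The untreated and 90 min libraries thus differed 4.32-fold and 4.08-fold within their own group, whereas the 7 days libraries lay within 1.14-fold of one another. The log2 fold change at 7 days was -1.06 (SE 0.35, edgeR adjusted p = 0.0116). One untreated library lay within the 7 days range, and without untreated replicate 2, the highest, the log2 fold change was -0.59 and not called (adjusted p = 0.0871). With lane as a term it was 0.07 (adjusted p = 0.952). Against 90 min (-1.25, adjusted p = 0.00404) and the knockdown (-0.98, adjusted p = 0.0208) all libraries at 7 days were lower. Within lanes 4 and 5 these differences were -1.08 and -0.81, and with lane as a term in the fit of all libraries they were -1.06 (edgeR adjusted p = 0.123) and -0.80 (adjusted p = 0.311), so that both calls were lost. At 90 min the log2 fold change from untreated cells was 0.19 with a 95% confidence interval from -0.53 to 0.90, so that a change of that size was not detectable.

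Over the 20 libraries the genes most like SLC7A11 in log2 CPM were FAM107B (Pearson r = 0.97), SLC1A4, a transporter of neutral amino acids (0.96), and ALDH1L2, a mitochondrial enzyme of folate metabolism (0.95). These values describe the libraries, which fall into groups of 5, and r was the highest of 14992 genes by choice. ALDH1L2 was at 72.1 CPM in untreated replicate 2 and 65.1 CPM in replicate 3 at 90 min, the 2 libraries in which SLC7A11 was highest. Its other untreated libraries ranged from 10.2 to 23.7 CPM. CHAC1, which degrades glutathione, also varied among untreated libraries (20.1 ± 13.4 CPM, SD, n = 5) and stood at 7.69 ± 0.43 CPM at 7 days.

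**Figure D4:**
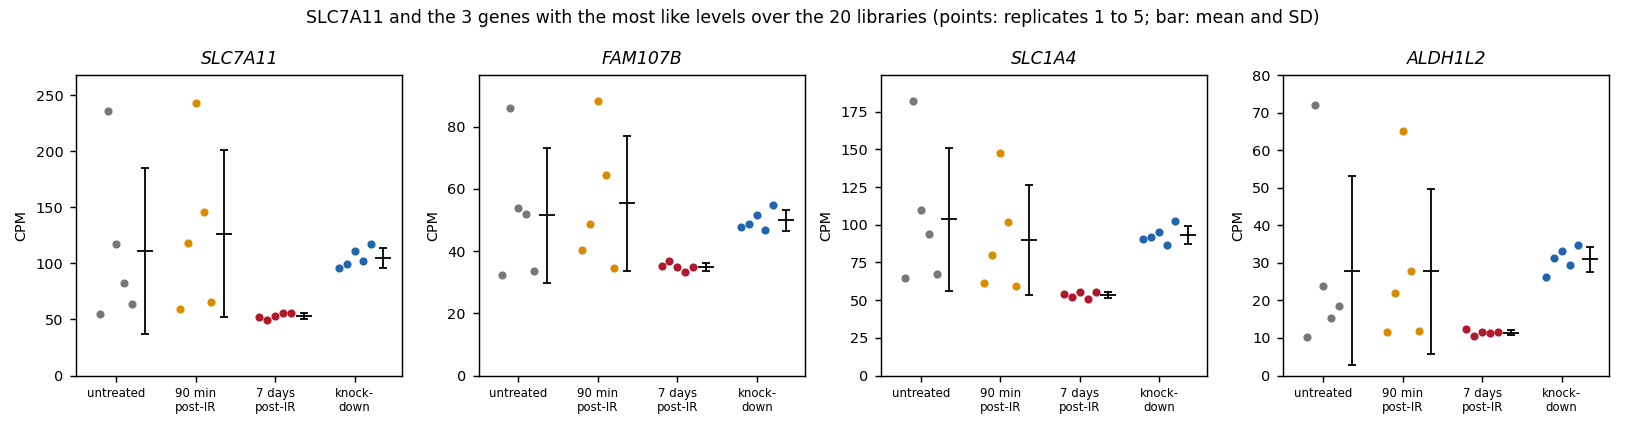
CPM (vertical axis, from 0) of SLC7A11, FAM107B, SLC1A4 and ALDH1L2 in each library by group, with points for replicates 1 to 5 and a bar for mean and SD. In each panel untreated replicate 2 and replicate 3 at 90 min are the highest libraries, and the 7 days libraries lie close together.

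TXNRD1 and SRXN1 act in the thioredoxin system: thioredoxin reductase 1 keeps thioredoxin reduced, and sulfiredoxin restores overoxidised peroxiredoxins. TXNRD1 stood at 181.7, 217.4, 198.6, 178.0 and 168.8 CPM in untreated replicates 1 to 5 and at 316.3, 286.6, 303.3, 305.4 and 315.6 CPM at 7 days. SRXN1 stood at 62.4, 60.5, 64.1, 68.7 and 51.8 CPM and at 91.7, 96.1, 91.1, 99.1 and 99.3 CPM in the same order. Neither gene overlapped between the groups. TXNRD1 rose by 0.69 on the log2 scale (SE 0.06, edgeR adjusted p = 9.05e-10) and SRXN1 by 0.63 (SE 0.06, adjusted p = 9.29e-09). Without untreated replicate 5, the lowest of its group for both genes, the values were 0.635 and 0.558, both called. With lane as a term, which compares untreated cells with the rest through replicate 5, they were 0.90 and 0.83, both called. At 90 min SRXN1 ranged from 57.8 to 66.8 CPM, across the untreated range (95% confidence interval of the log2 fold change -0.13 to 0.13), and TXNRD1 was at 204.9 to 223.5 CPM (0.16, edgeR adjusted p = 0.0516, and 0.0265 by DESeq2). The fit with lane gave 0.34 for TXNRD1 (edgeR adjusted p = 0.0061) and 0.24 for SRXN1 (adjusted p = 0.0384) at 90 min. Neither passed the fold threshold, and this fit rests on untreated replicate 5. Without that library TXNRD1 was at 0.11 and SRXN1 at -0.06 at 90 min (edgeR adjusted p = 0.0864 and 0.343). In the knockdown the log2 fold changes were 0.05 for TXNRD1 and -0.10 for SRXN1, neither past the test. Without untreated replicate 5 SRXN1 was at -0.175 (edgeR adjusted p = 0.00448), still short of the fold threshold. SRXN1 shares 2292 exon bases with AL121758.1, a protein-coding gene on the same strand. The counts of AL121758.1 were 96.6 to 99.8% of those of SRXN1 in every library, so that the reads of the pair cannot be told apart.

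FTH1 and FTL encode the heavy and light chains of ferritin. FTL stood at 998.2, 903.8, 937.9, 1222 and 1532 CPM in untreated replicates 1 to 5 and at 1802, 1880, 1801, 1832 and 1745 CPM at 7 days. All libraries at 7 days exceeded all untreated ones, of which replicate 5 was the highest. The log2 fold change was 0.70 (SE 0.10, edgeR adjusted p = 3.86e-06), a 1.62-fold difference, and 0.82 without untreated replicate 5. With lane as a term, which compares untreated cells with the rest through replicate 5, it was 0.33 and no longer called (adjusted p = 0.0913). FTH1 stood at 760.9, 738.5, 722.5, 984.7 and 1346 CPM in untreated replicates 1 to 5 and at 990.2 to 1097 CPM at 7 days. These overlapped, with a log2 fold change of 0.19 (95% confidence interval -0.06 to 0.45), 0.36 without replicate 5 (edgeR adjusted p = 0.000281, under the fold threshold) and -0.36 with lane as a term (adjusted p = 0.101). GENCODE 29 lists 25 pseudogenes of FTH1 and 16 of FTL, near copies that can share reads, and 0 of these are among the genes of the table. FTH1 also overlaps BEST1 on the opposite strand by 1267 bases, but BEST1 had at most 65 counts where FTH1 had at least 18947.

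At 90 min both chains were below untreated cells on average, FTL by -0.39 (edgeR adjusted p = 0.00825) and FTH1 by -0.36 (adjusted p = 0.0419) on the log2 scale. Their libraries overlapped the untreated ones, and without replicate 5 the values were -0.26 and -0.18, with FTH1 no longer past the adjusted p (0.0697). The fit with lane as a term, which rests on replicate 5, gave -0.82 for FTL (edgeR adjusted p = 1.6e-05) and -0.90 for FTH1 (adjusted p = 2.12e-05), both called. In the knockdown FTL differed from untreated cells by -0.25 (edgeR adjusted p = 0.0511) and FTH1 by -0.32 (adjusted p = 0.0418). Without replicate 5 the values were -0.13 and -0.15 (adjusted p = 0.111 and 0.0984), and with lane as a term FTL was at -0.60 (edgeR adjusted p = 0.028) and FTH1 at -0.97 (adjusted p = 0.00341), both called. Against 90 min FTL rose by 1.09 (adjusted p = 7.74e-09) and FTH1 by 0.55 (adjusted p = 0.000549) at 7 days, and within lane 4 by 1.13 and 0.52. Against the knockdown FTL rose by 0.95 (adjusted p = 6.85e-08) and FTH1 by 0.51 (adjusted p = 0.00119), the latter close to the fold threshold. This FTH1 call was lost with no filter and in 10 of 20 fits that left out 1 library.

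The count ratio of FTH1 to FTL was 0.807 ± 0.046 (SD, n = 5) in untreated cells, 0.834 ± 0.041 at 90 min, 0.575 ± 0.026 at 7 days and 0.777 ± 0.075 in the knockdown. The 5 libraries at 7 days (0.545 to 0.599) lay below all others. Their log2 ratio differed from untreated cells by -0.49 (exact permutation test, two-sided, n = 5 each, adjusted p = 0.017) and by -0.46 without untreated replicate 5. At 90 min and in the knockdown the difference from untreated cells did not pass (0.05 and -0.06, exact adjusted p = 0.407 and 0.476). Without knockdown replicate 5, which had the highest ratio of its group, the knockdown difference was -0.12 and passed (exact permutation test, adjusted p = 0.0446). Together the 2 chains took 0.279 to 0.296% of all counts at 7 days, 0.148 to 0.177% at 90 min and in the knockdown, and 0.164 to 0.269% in untreated cells.

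Among the members, the closest over the 20 libraries were HMOX1 and SRXN1 (Pearson r of log2 CPM 0.95), HMOX1 and TXNRD1 (0.92), and TXNRD1 and SRXN1 (0.92). FTH1 and FTL had an r of 0.89, and GCLC ran opposite to both ferritin chains (-0.88 with FTH1 and -0.87 with FTL). Outside the members, HMOX1 was most like ITGBL1 (0.98), FHL2 (0.98) and NEMP2 (0.97), NQO1 most like ACOT7 (0.96), GSPT1 (0.95) and PRADC1 (0.95), and FTL most like SMAGP (0.98), AMZ2 (0.97) and CERCAM (0.97). FHL2, a LIM-domain cofactor, averaged 258 CPM in untreated cells, 279 at 90 min, 404 at 7 days and 201 in the knockdown, the same order of groups as HMOX1. These are descriptions over 4 groups of libraries, and libraries of a group share its condition.

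A wider list of 109 other genes of NRF2 control, glutathione, thioredoxin, NADPH supply, detoxification, heme and iron was written by role, of which 102 were in the table and 95 were tested. At 7 days 15 were higher and 8 lower than in untreated cells, 24.2% of the list, beside 31.1% of all genes, with a median log2 fold change of 0.09. The 3 highest were AKR1B10, an aldo-keto reductase (3.78, from 0.499 to 6.45 CPM), HEPH, a copper-dependent iron oxidase that acts with iron export (2.54, from 1.16 to 6.79 CPM), and SQSTM1, which encodes the autophagy adaptor p62 that binds KEAP1 (1.23, from 548 to 1282 CPM), each without overlap (edgeR adjusted p at most 2.5e-11). The lowest were CHAC1 (-1.40, overlapping), SOD3, extracellular superoxide dismutase (-1.24, at under 1 CPM in either group's mean and overlapping) and STEAP3, an endosomal iron reductase (-1.03, from 286 to 141 CPM, no overlap). Of the 11 regulators tested 4 were higher (MAFF, MAFG, MAFK and SQSTM1) and 1 was lower (RBX1). Of 17 genes of glutathione synthesis and use 3 were higher (GPX1, GSTO1 and MGST1) and 4 lower (GPX4, GSTM1, GSTA4 and CHAC1). None of the 6 genes of NADPH supply was called. CAT, the gene of catalase, had a log2 fold change of -0.04, and TFRC, the transferrin receptor, of 0.09.

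**Figure D5:**
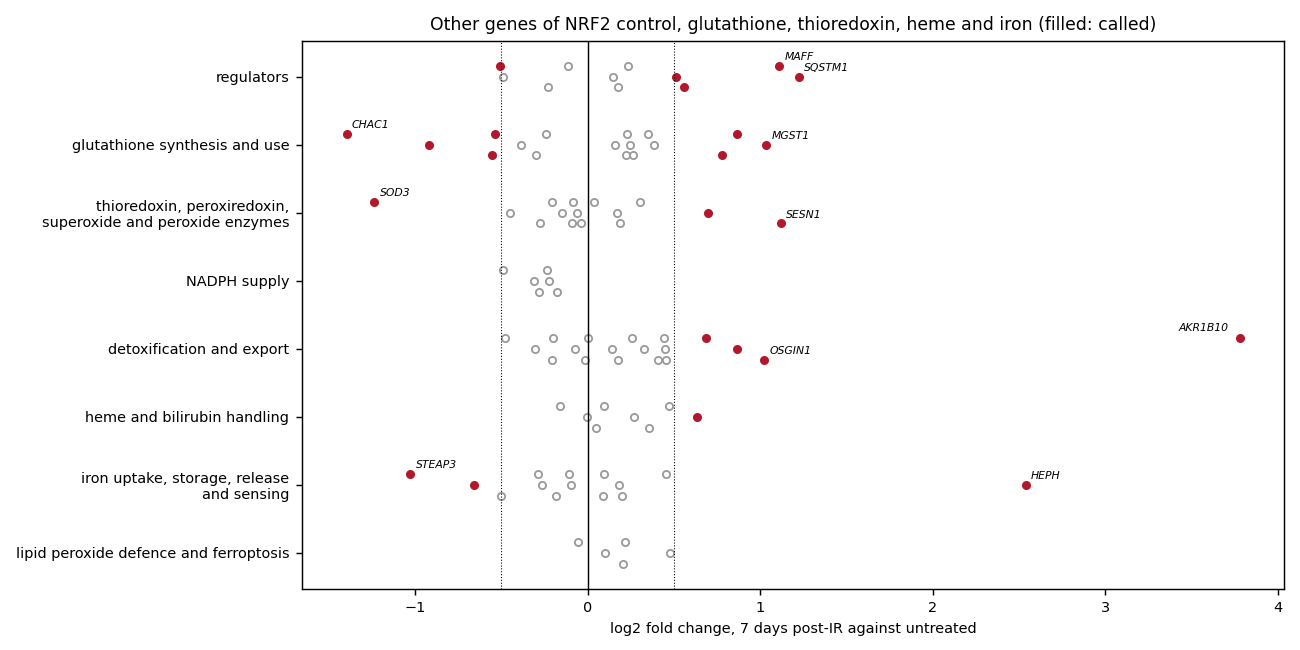
Log2 fold change at 7 days post-IR against untreated cells (horizontal axis) for 95 other genes, 1 point per gene, by role. Filled points are called, dotted lines mark the fold threshold, and called genes beyond 1 in size are named. The 6 genes of NADPH supply all lie below 0 without being called, and AKR1B10 (3.78) and HEPH (2.54) lie farthest to the right.

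At 90 min 5 of the 95 were higher and 0 lower, 5.26% of the list beside 3.66% of all genes, and MAFG and MAFK are named here after their values were seen. MAFF, a small MAF protein, rose by 1.56 on the log2 scale (from 26.6 to 78.7 CPM), and MAFG and MAFK, its relatives, both rose by 0.58. SESN1 rose by 1.36 and SESN2 by 1.14. These encode sestrins, stress proteins under p53 control. None of the 5 overlapped the untreated libraries. Without untreated replicate 5 MAFG (0.47) and MAFK (0.47) were under the fold threshold, which left 3 called, beside 3.28% of all genes. In the knockdown 1 gene was higher and 4 were lower (5.26% of the list beside 12.7% of all genes). PGD, which makes NADPH in the pentose phosphate pathway, fell from 266 to 115 CPM (-1.21, edgeR adjusted p = 3.55e-13, no overlap). AKR1C3 (-0.64), TFR2, the second transferrin receptor (-0.57), and HEPH (0.57) were called with overlapping libraries, and the fourth gene called lower was TRIM16L, named after its value was seen. Without knockdown replicate 5 the calls of HEPH (0.475) and TFR2 (-0.56, edgeR adjusted p = 0.0739) were lost, which left 0 higher and 3 lower, beside 12.0% of all genes. Against 90 min 13 genes were higher and 8 lower at 7 days (22.1% of the list beside 29.3% of all genes), with AKR1B10 (3.58), HEPH (2.92) and SQSTM1 (1.24) highest and STEAP3 (-0.94), GSTA4 (-0.79) and GSTM1 (-0.78), both glutathione transferases, lowest. Against the knockdown 22 were higher and 3 lower (26.3% of the list beside 25.7% of all genes), with AKR1B10 (3.35), HEPH (1.97) and OSGIN1, an oxidative stress growth inhibitor (1.13), highest and GSTA4 (-0.75), STEAP3 (-0.55) and PCBP1, a poly(C) binding protein that delivers iron to ferritin (-0.51), lowest.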

How the data were processed

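Per the labels, reads were processed with bcl2fastq, Trimmomatic and STAR 2.4.2a on hg19, and the authors deposited whole-number read counts per gene without normalization. The annotation, the counter and the strand setting are not given in the sources used here. According to the methods, stranded mRNA libraries from total RNA were sequenced as single reads of 100 bases.

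The count table was tested with edgeR 4.0.16 under R 4.3.3, using filterByExpr (minimum count 10), TMM scaling and 1 quasi-likelihood model of 4 groups on 20 libraries without covariate, with Benjamini-Hochberg adjustment over 14992 genes. Standard errors came from the F statistic. Log2 CPM used a prior count of 2. Ratios were compared by two-sided exact permutation tests (15 tests). Alternatives were RLE, upper-quartile and library-size scaling, DESeq2 1.42.0, other filters, only the groups compared, replicate block, lane, other call rules and leaving out each library. The comparison within lane 3 was added after seeing the data. The edgeR, DESeq2 and permutation tests were tested on simulated data. GENCODE 29 gave overlaps and pseudogenes. Figures used matplotlib 3.10.9.

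Named were all members, NFKBIA, KEAP1, in each comparison up to 3 called genes of the wider list in each direction, and the 3 genes most like HMOX1, SLC7A11, NQO1 and FTL. The members and lists were chosen with earlier results of these data known. Other named genes are examples picked after their values were seen. BACH1, GGT1, TXNRD3, SOD2, TXNIP, TRIM16 and NCOA4 were not analysed here. Libraries are taken as biological replicates as the study states. If cultures were not separate, p values measure technical spread. Same-numbered libraries correlated by -0.254 to 0.121 in their deviations from the group mean, so the numbers were not taken to pair them.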

Additional observations from a re-analysis of the deposited data

Results flagged for a closer look

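For 6 of the 10 members the effect of IR at 7 days was called different from that at 90 min, with the fold threshold. The test was of the difference itself, which is the edgeR comparison of 7 days with 90 min. The difference in log2 fold change was 1.09 for FTL, 0.96 for HMOX1, 0.63 for SRXN1, 0.55 for FTH1, 0.54 for TXNRD1 and -1.25 for SLC7A11. Of all genes 29.3% were called in the same comparison. Without the fold threshold 8 members passed the adjusted p, GCLC (-0.42) and NFE2L2 (-0.24) among them, beside 60.9% of all genes.

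Of 52 groups of 5 values examined for a single library far from the rest (Dixon's test, critical value 0.71), 4 were found, where chance gives about 2.6. GCLM was highest in untreated replicate 2 (37.9 CPM, the other 4 at 34.5 to 35.2) and in knockdown replicate 5 (32.0 CPM, the other 4 at 29.2 to 29.8). FTH1 was highest in knockdown replicate 5 (826.7 CPM, the other 4 at 694.5 to 717.2), and so was the log2 ratio of FTH1 to FTL in that library (-0.14, against a group mean of -0.37).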

How the results depend on the processing

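RLE, upper-quartile and library-size scaling, DESeq2, a filter of 10 counts in every library and a fit of only the groups compared changed no call of a member. Other scalings moved the median log2 fold change of all genes by less than 0.1. With no filter the log2 fold change of FTH1 between 7 days and the knockdown was 0.50 and no longer called, that of NFE2L2 at 7 days against untreated cells was -0.006, and 9 genes of the wider list were called in the knockdown, beside 10.6% of all genes. With the replicate block, the SLC7A11 difference of knockdown and untreated cells was 0.076 in place of -0.08, neither past the test, and no member call changed. In each comparison at most 2 of the 5 numbers correlated best with their own.

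With lane as a term, 4 members were called at 90 min, 3 at 7 days and 2 in the knockdown against untreated cells, and 23, 36 and 25 of the 95 genes of the wider list, beside 25.5%, 41.3% and 27.3% of all genes. Signs then turned for NQO1 at 90 min (0.005), for GCLC (0.065), SLC7A11 (0.068), FTH1 (-0.36) and NFE2L2 (-0.019) at 7 days, and for HMOX1 (0.077), SRXN1 (0.079) and SLC7A11 (0.87) in the knockdown. The SLC7A11 calls at 7 days against 90 min (-1.06) and the knockdown (-0.80) and the FTL call at 7 days against untreated cells (0.33) were lost. This term links untreated cells to the rest only through untreated replicate 5. Within lane 3 the log2 fold changes at 90 min of HMOX1 (0.69), GCLC (0.51), FTH1 (-0.91) and FTL (-0.83) are given as values only, since the untreated side is 1 library (n = 1) and shows no spread.

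Without the fold threshold 5 members were called at 90 min and 5 in the knockdown, and 22, 66 and 32 genes of the wider list at 90 min, at 7 days and in the knockdown against untreated cells, 61 at 7 days against 90 min and 63 against the knockdown. Of all genes, 21.3%, 64.2%, 40.5%, 60.9% and 57.4% were called in these comparisons. With Bonferroni correction 13 genes of the wider list were called at 7 days and 2 in the knockdown against untreated cells, beside 3142 and 899 of the 14992 genes tested, and the calls of SLC7A11 in 3 comparisons and of FTH1 in 2 were lost.

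Leaving out each library in turn gave 0 to 0 members called at 90 min, 4 to 5 at 7 days and 0 to 1 in the knockdown against untreated cells, and 6 to 6 and 6 to 7 at 7 days against 90 min and the knockdown. The wider list gave 3 to 5, 20 to 26, 3 to 7, 20 to 24 and 25 to 28 in the same order, beside 3.05 to 4.57%, 30.6 to 32.4%, 11.9 to 14.2%, 28.9 to 30.0% and 25.3 to 26.4% of all genes. FTH1 at 7 days against the knockdown (0.48 to 0.55) missed the fold threshold in 10 of 20 such fits. SLC7A11 ranged from -1.24 to -0.59 at 7 days, -0.19 to 0.67 at 90 min and -0.25 to 0.40 in the knockdown, and TXNRD1 from -0.008 to 0.10 in the knockdown. The log2 ratio of GCLC to GCLM at 90 min ranged from -0.027 to 0.036 and that of FTH1 to FTL in the knockdown from -0.12 to -0.027. That of NFE2L2 to KEAP1 ranged from 0.26 to 0.44, 0.18 to 0.36 and 0.17 to 0.35 against untreated cells at 90 min, at 7 days and in the knockdown, and from -0.015 to 0.033 at 7 days against the knockdown. The cause of these changes was not tested.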
